A study of Mus musculus with 14 samples.

Results

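The genes described here are 37 genes of the cell cycle and of DNA replication, taken by symbol from the deposited gene tables of mouse small intestine, out of 36401 genes in all. Each of the 37 has 1 entry in the tables and all 37 passed the filter on low counts, with which 14750 genes were tested. They fall into 12 genes of the replication fork and its licensing, 4 of nucleotide supply, 6 of G1 and the entry into S phase, 13 of G2 and mitosis, and 2 inhibitors of cyclin-dependent kinases (CDKs).

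RNA came from C57Bl6 mice labelled male and 6 to 12 weeks old, and no genotype or treatment is given beyond the strain. Ileum was tissue 5 to 8 cm from the cecum and jejunum tissue 5 to 8 cm from the pylorus. In each region 3 populations were sequenced. CD166 cells were sorted as CD44+/CD24lo/CD166+ and had 2 ileum and 2 jejunum libraries. LGR5 cells, named for a Wnt-pathway receptor of stem cells at the crypt base, had 2 ileum and 2 jejunum libraries, and the reporter or antibody behind the sort is not stated in the labels. Crypt cells, the reference for both, had 3 ileum and 3 jejunum libraries. Per the study's design text sorted cells went directly into lysis buffer, although the labels also describe a culture of sorted cells in Matrigel. The labels do not say whether libraries came from separate mice, so p-values measure the spread between these libraries, which may be technical.

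In a dividing cell, D-type cyclins and cyclin E drive CDKs through G1, and the released E2F factors switch on the genes needed to copy DNA. CDC6 and CDT1 load the ring-shaped MCM helicase onto origins, the GINS complex helps to activate it, and PCNA clamps the polymerases to DNA, while ribonucleotide reductase, thymidylate synthase and thymidine kinase supply the nucleotides. CDK1 with cyclins A and B then drives mitosis, together with the Aurora and Polo kinases and the anaphase activator CDC20. The inhibitors p21 (Cdkn1a) and p27 (Cdkn1b) hold CDKs back. In the intestinal crypt, crypt base columnar cells divide regularly and their daughters divide rapidly in the transit-amplifying zone, whereas Paneth cells and villus enterocytes do not divide.

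The regulatory letters of the 2 main waves can be read in the promoters. RefSeq (build GRCm38.p6) gave windows of 300 bases, from 250 before to 50 after a gene's start, for 28 of the 37 genes. Gins1, Gins2, Ccna2, Ccne2, Mcm4, Ccnd1, Ccnd2, Aurkb and Foxm1 were not matched. The E2F-type octamers TTTGGCGC, TTTGCCGC, TTTCGCGC and TTTCCCGC, searched on both strands, were found in 6 of 9 replication fork and licensing genes (66.7%), in 1 of 10 mitotic genes and in none of the nucleotide supply, G1 or inhibitor genes, against 2.6% of 27025 genes in the table. The cell cycle homology region (CHR) letters TTTGAA and TTCGAA, known from G2 and mitosis promoters, were found in 8 of 10 mitotic genes (80.0%) and 2 of 9 replication genes, against 21.7% of all genes. The CCAAT box was found in 9 of 10 mitotic genes and 7 of 9 replication genes, against 41.1% of all genes. A GAACATGT half-site of the p53 type was found in Cdkn1a alone among the members, against 0.762% of all genes, a motif searched after its promoter had been read. Matches are descriptions of these letters and not evidence of binding. The windows below are those of Mcm5, Mcm7, Cdk1 and Mki67, as examples of replication and mitosis genes, and of Cdkn1a. They are read 5′ to 3′ on the gene's strand, with the matched motifs in capitals.
Mcm5, chr8:75109259-75109558, plus strand: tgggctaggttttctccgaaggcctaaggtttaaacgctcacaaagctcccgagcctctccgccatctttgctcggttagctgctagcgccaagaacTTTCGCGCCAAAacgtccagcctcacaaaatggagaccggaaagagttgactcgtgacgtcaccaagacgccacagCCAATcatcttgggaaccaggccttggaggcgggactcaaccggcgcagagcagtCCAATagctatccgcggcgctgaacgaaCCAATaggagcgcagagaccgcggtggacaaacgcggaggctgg
Mcm7, chr5:138171834-138172133, minus strand: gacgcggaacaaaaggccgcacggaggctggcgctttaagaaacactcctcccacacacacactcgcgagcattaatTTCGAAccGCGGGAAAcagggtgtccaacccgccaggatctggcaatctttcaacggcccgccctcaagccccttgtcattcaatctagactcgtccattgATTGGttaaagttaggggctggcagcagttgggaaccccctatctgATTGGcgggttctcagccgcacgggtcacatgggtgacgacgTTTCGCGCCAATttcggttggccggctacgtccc
Cdk1, chr10:69352863-69353162, minus strand: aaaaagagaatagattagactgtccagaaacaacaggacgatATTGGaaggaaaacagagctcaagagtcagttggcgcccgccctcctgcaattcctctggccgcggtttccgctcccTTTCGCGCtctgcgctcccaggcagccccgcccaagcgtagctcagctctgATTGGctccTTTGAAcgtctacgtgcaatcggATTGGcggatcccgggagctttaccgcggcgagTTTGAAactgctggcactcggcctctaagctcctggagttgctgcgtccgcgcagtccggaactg
Mki67, chr7:135716330-135716629, minus strand: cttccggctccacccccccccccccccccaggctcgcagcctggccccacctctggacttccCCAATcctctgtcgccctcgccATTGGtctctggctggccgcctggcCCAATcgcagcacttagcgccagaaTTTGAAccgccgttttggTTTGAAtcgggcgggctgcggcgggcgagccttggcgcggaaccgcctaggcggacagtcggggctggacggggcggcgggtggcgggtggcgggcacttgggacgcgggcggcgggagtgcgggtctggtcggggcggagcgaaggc
Cdkn1a, chr17:29090729-29091028, plus strand: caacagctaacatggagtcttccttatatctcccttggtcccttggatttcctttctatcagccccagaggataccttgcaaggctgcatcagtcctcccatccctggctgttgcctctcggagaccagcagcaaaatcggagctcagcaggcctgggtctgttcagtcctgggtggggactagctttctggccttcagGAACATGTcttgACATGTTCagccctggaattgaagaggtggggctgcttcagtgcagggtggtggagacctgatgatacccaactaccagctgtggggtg
In the Mcm5 window an E2F octamer and its neighbour on the other strand overlap, and 3 CCAAT boxes follow. Mcm7 and Cdk1 hold letters of the E2F and the CHR kind together with CCAAT boxes, and Mki67 holds CHR letters and CCAAT boxes without an E2F octamer. Overlapping motifs run together in the printed capitals, as at the end of the Mcm7 window. Mcm7 and Cdkn1a each have 2 windows in the table, of which the first is shown. The second Cdkn1a window held none of the searched motifs, so its p53-type half-site lies in the first window only. The second Mcm7 window held a CCAAT box but no E2F or CHR letters. In the counts above a gene was taken as matched if any of its windows held the motif. The windows are from a later build than the mm9 genome named in the submitters' processing notes, and no mm9 coordinates are given.

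Several libraries stand apart, and results that rest on them are given with and without them. Library totals ran from 6295828 to 20380369 expected counts. The library labelled ileum crypt 3 resembled jejunum crypt 1 more than any other pair of libraries: 16.9% of genes differed between them beyond counting noise, against 36.6% for the next closest pair. Its ileal gene Fabp6 stood at 25.8 CPM (the TMM-normalised level used throughout), against 2688 and 1987 CPM in ileum crypt 1 and 2. Although all labels say male, the 8 sorted libraries held 201 to 1361 CPM of Xist, ileum crypt 1 held 1675 CPM and jejunum crypt 2 held 1310 CPM. The remaining crypt libraries did not exceed 3.11 CPM of Xist. The Y-linked gene Ddx3y stood at 0 CPM in ileum crypt 1 and jejunum crypt 2. It stood at 4.59 to 35.2 CPM in the 8 sorted libraries and at 40.4 to 53.5 CPM in the remaining crypt libraries. By these 2 genes the sex make-up differed between sorted and crypt libraries and among crypt libraries, and its part in the comparisons was not tested. Of the sort markers, Lgr5 was higher in LGR5 than in crypt cells (log2 2.45 ± 0.33 SE, adjusted p = 0.000428) and in CD166 than in crypt cells (log2 1.78 ± 0.33, adjusted p = 0.00253). Cd44 was higher in CD166 than in crypt cells by log2 1.87 ± 0.18. Alcam, which encodes CD166, did not pass the test in CD166 against crypt cells (log2 0.02 ± 0.16, adjusted p = 0.936), and Cd24a was higher there (log2 1.62 ± 0.28) although the gate was CD24lo.

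Jejunum crypt 2 bears on every comparison with crypt. It was the lowest of all 14 libraries for 31 of the 37 genes, and the share of all genes lowest there was not computed. Over all genes, 70.3% to 81.6% differed beyond counting noise between this library and each other library. Its mitotic genes had a median of 31.2% of the mean of the 5 other crypt libraries, its replication genes 41.3%, its nucleotide supply genes 53% and its G1 genes 72.3%. Mki67, the proliferation antigen Ki-67, stood at 82.0 CPM there, against 290.1 to 368 CPM in the other 5 crypt libraries (333 ± 36.1 CPM, SD, n = 5). Ccnd1 (cyclin D1) was at 15.6% of the mean of the other 5. Not all members were low there: Ccne2 (cyclin E2) stood at 185%, Cdkn1b at 179% and Ccnd3 (cyclin D3) at 123%. The summed level of 9 lymphocyte markers was 10952 CPM in this library, against 158 to 3025 CPM in the other crypt libraries and at most 52.5 CPM in sorted libraries. Its 12 enterocyte markers summed to 57594 CPM, against 8883 to 37689 CPM in the other crypt libraries. Its 12 crypt base columnar markers summed to 1502 CPM, against 3081 to 5968 CPM. In bulk RNA a smaller share of dividing cells and less message in each cell cannot be told apart.

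**Figure D1:**
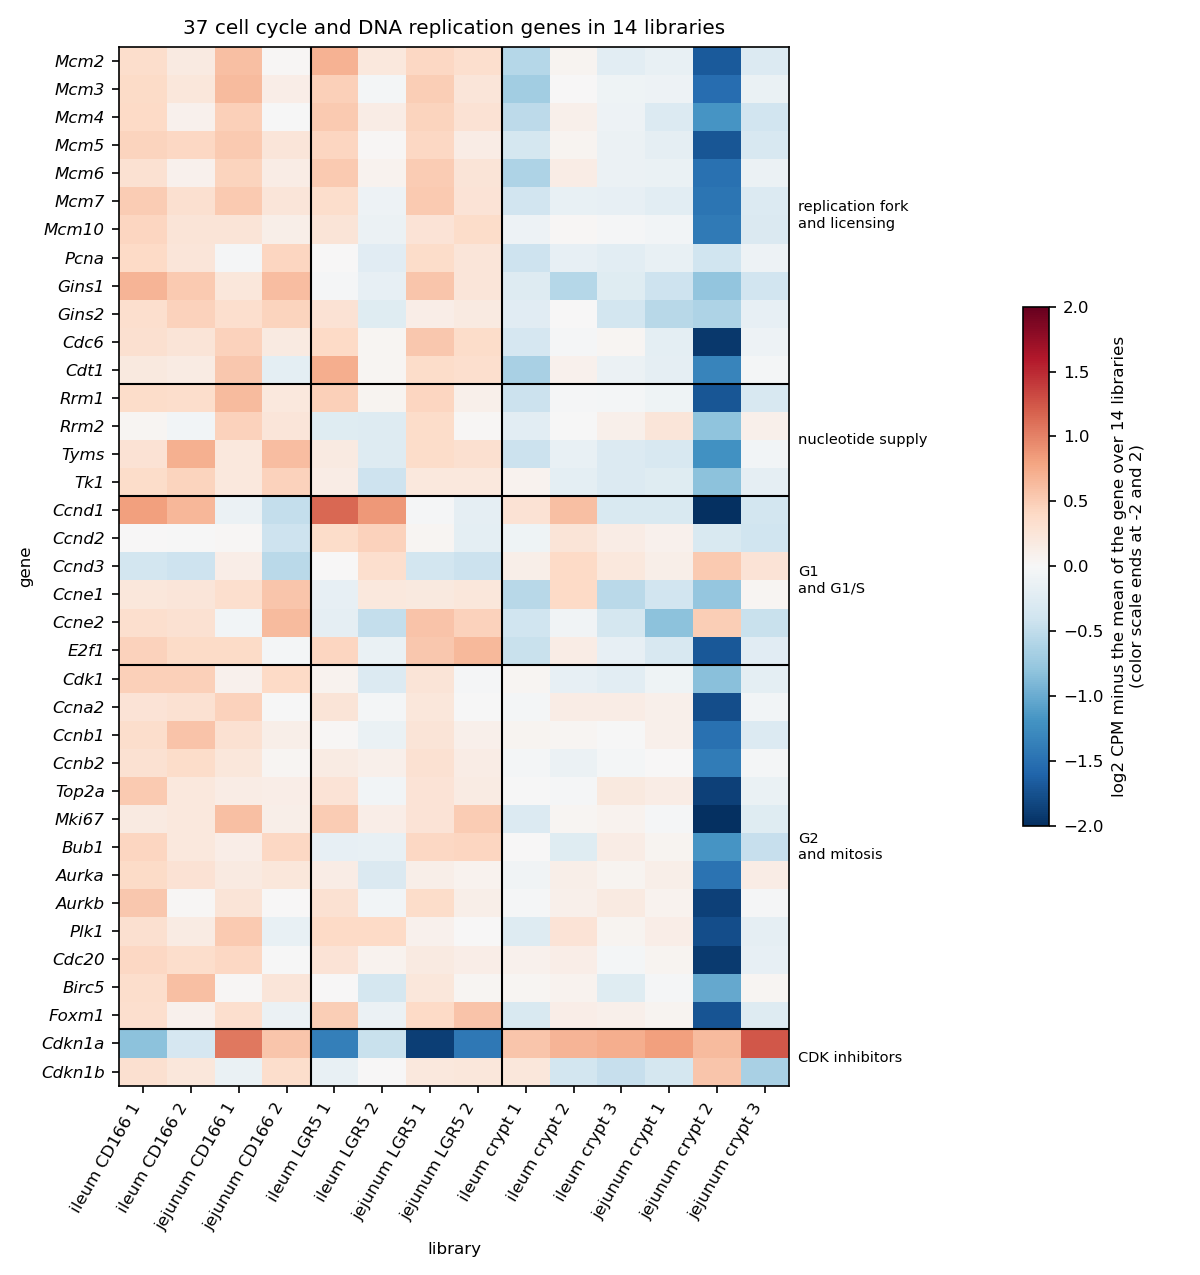
Rows are the 37 genes in their 5 classes and columns the 14 libraries, CD166 left, LGR5 centre and crypt right. The color is log2 CPM minus the mean of the gene over the 14 libraries, with the scale ending at -2 and 2. Jejunum crypt 2 is the lowest library for 31 genes, and Cdkn1a runs against most other rows in LGR5 cells.

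Spread among libraries was taken over the 8 sorted libraries, CD166 and LGR5 together, and over 5 of the crypt libraries. Over the 8 sorted libraries the highest level of a gene was a median 1.59 times its lowest, and 34 of the 37 genes stayed within 2-fold. Ccne2 spread 2.17-fold, Ccnd1 3.09-fold and Cdkn1a 7.63-fold. Over the 5 crypt libraries other than jejunum crypt 2 the median was 1.32-fold and all 37 genes stayed within 2-fold. Jejunum crypt 2 was left out for its low levels of most of these genes, which narrows that spread. The spread of all tested genes was not computed, so small spreads are not shown to be particular to the members. Levels are not compared between genes, since no gene lengths of the build used were at hand.

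LGR5 cells against crypt cells asks which cell cycle genes differ in cells selected for a stem cell receptor. Of the replication fork and licensing genes 5 of 12 rose in LGR5 cells, none of the 13 mitotic genes passed the test, and Cdkn1a fell. In edgeR's quasi-likelihood test with Benjamini-Hochberg adjustment over all 14750 genes, 6 members were higher and 1 lower (adjusted p under 0.05). Of all genes, 13% were called higher and 18.5% lower (31.5% in either direction), so the share of members called higher (6 of 37) is near that background. The direction was more uniform than the calls: 35 of 37 members had a positive difference, against 49.7% of all genes, and the median of all genes was log2 -0.01. All p-values of single genes below are adjusted and from this fit unless another tool is named.

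The helicase and its partners led. Mcm2, an MCM subunit, stood at 196 and 141 CPM in ileum LGR5 cells and 162 and 154 CPM in jejunum LGR5 cells, against 82.2, 126 and 105 CPM in ileum crypts and 109.6, 37.9 and 101 CPM in jejunum crypts. Every LGR5 library lay above every crypt library, and the difference was log2 0.81 ± 0.26 (adjusted p = 0.0366). Mcm4 stood at 146, 113, 139 and 125 CPM in the 4 LGR5 libraries and at 44.9 to 109 CPM in the 6 crypt libraries, with a median of 81.6 CPM. Its groups did not overlap either, with a difference of log2 0.71 ± 0.20 (adjusted p = 0.0193).

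Mcm7, another MCM subunit, was higher by log2 0.66 ± 0.22 (adjusted p = 0.0376). Gins1 and Gins2, subunits of the GINS complex, were higher by log2 0.59 ± 0.16 (adjusted p = 0.0181) and 0.42 ± 0.14 (adjusted p = 0.0415). The other MCM subunits pointed the same way without passing the test, at log2 0.64 ± 0.26 for Mcm3, 0.63 ± 0.24 for Mcm5 and 0.66 ± 0.26 for Mcm6. Cdc6 and Cdt1, which load the helicase, had log2 0.65 ± 0.27 and 0.69 ± 0.25 (adjusted p = 0.0903 and 0.0586). The class median was log2 0.65. These calls are close to the threshold: of the 14 fits that left out 1 library, the call remained in 4 for Mcm2, 11 for Mcm4, 3 for Mcm7, 11 for Gins1 and 3 for Gins2. Of the 8 other alternatives, 1 kept the call of Gins2, which was lost with DESeq2 size factors, without the filter and with limma-voom among others.

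Of the nucleotide supply genes none of 4 was called, with a median of log2 0.41. Rrm1, the large subunit of ribonucleotide reductase, had log2 0.63 ± 0.26, whereas its partner Rrm2 had log2 0.04 ± 0.18. Among the 6 G1 genes E2f1, the transcription factor that drives S phase genes, was higher by log2 0.75 ± 0.25 (adjusted p = 0.0429), a call that remained in 4 of the 14 fits without 1 library. Ccnd3 had the only negative difference of this class, log2 -0.39 ± 0.15 (adjusted p = 0.0686).

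None of the 13 mitotic genes was called in LGR5 against crypt cells by edgeR, and all 13 had a positive difference, from log2 0.12 to 0.66 with a median of 0.33. Mki67 stood at 502, 384, 427 and 498 CPM in LGR5 cells and at 290.1, 361, 368, 346, 82.0 and 298 CPM in crypt cells. The LGR5 libraries all lay above the crypt libraries, and the difference was log2 0.66 ± 0.31 (adjusted p = 0.131). Aurka (Aurora kinase A) and Birc5 (survivin), both needed for spindle function, had the smallest differences of the class, log2 0.12 ± 0.25 and 0.13 ± 0.19. Over all members, 16 of 37 had an unadjusted p under 0.05, against 43.1% of all genes. DESeq2 called 11 members and limma-voom 6, counts without a share of all genes beside them and so not read as results about the members.

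Cdkn1a (ENSMUSG00000023067), which encodes the CDK inhibitor p21, showed the largest difference of any member. It stood at 28.6 and 54.3 CPM in ileum LGR5 cells and 20.03 and 27.2 CPM in jejunum LGR5 cells, against 108, 118 and 122 CPM in ileum crypts and 131, 114 and 174 CPM in jejunum crypts. The groups lay far apart, with the highest LGR5 library below the lowest crypt library. The difference was log2 -2.02 ± 0.22 (0.246 of the crypt level, adjusted p = 0.000124). The call remained in all 14 fits that left out 1 library and in the 8 other alternatives, from log2 -2.34 to -1.84. Cdkn1b, the inhibitor p27, had log2 0.19 ± 0.23 (adjusted p = 0.553).

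Without jejunum crypt 2 the class medians of replication and mitotic genes were smaller and more members passed the test. That library was set apart after seeing its levels of these same genes, among others. Leaving it out narrows the spread, so p-values without it, here and below, are descriptions. Then 12 members were higher and 1 lower in LGR5 cells, with a background of 14.7% higher and 20.1% lower. The replication median was log2 0.47 (7 of 12 called) and the mitotic median log2 0.12 (1 of 13 called). Directions turned too: 32 of 37 members and 11 of 13 mitotic genes were then positive, with Aurka at log2 -0.08 ± 0.11 and Birc5 at -0.02 ± 0.12. The 1 mitotic call was Mki67, at log2 0.43 ± 0.15 (adjusted p = 0.0418). Ccnd1 (log2 0.48 ± 0.17), Ccne2 (0.52 ± 0.16) and Rrm1 (0.44 ± 0.15) were called higher, and Gins2 was no longer called (adjusted p = 0.0635). The count of members called was 1 without ileum LGR5 1 or jejunum LGR5 1, 2 without jejunum LGR5 2, 3 without ileum LGR5 2, ileum crypt 1, ileum crypt 3, ileum CD166 1 or ileum CD166 2, and 4 without jejunum CD166 1 or 2. It was 13 without jejunum crypt 2, where 5032 of all genes were called, against 4639 with all libraries. For the other fits no count of all genes is given here, so their member counts are not read as results about the members.

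**Figure D2:**
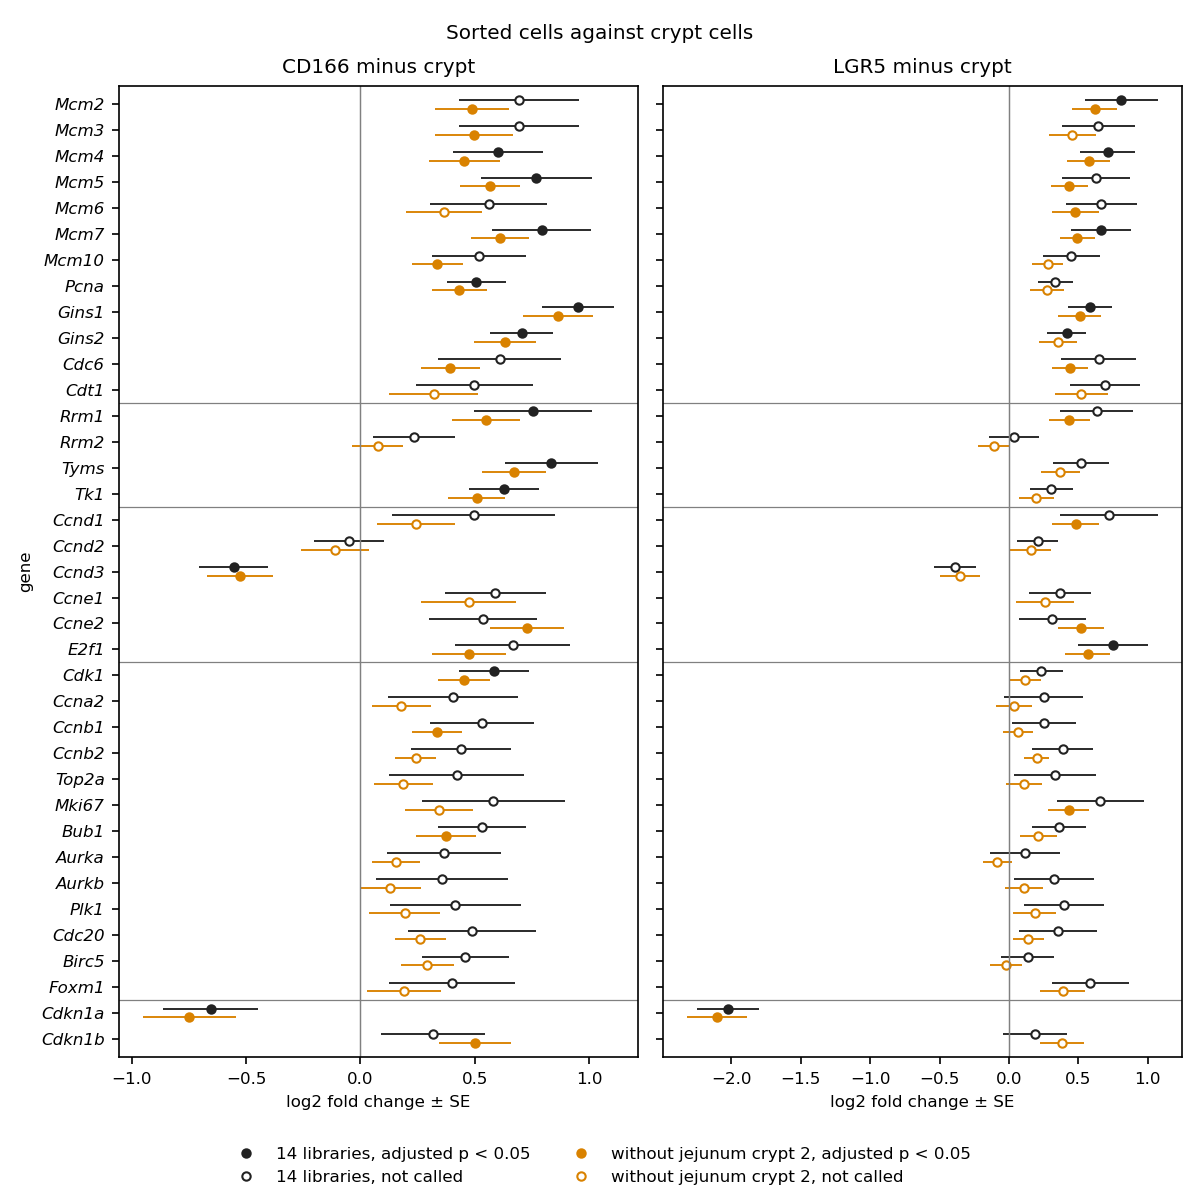
Points are log2 fold changes and bars their SE for each of the 37 genes, CD166 minus crypt on the left and LGR5 minus crypt on the right. Black is the fit to 14 libraries and orange the fit without jejunum crypt 2, and filled points have an adjusted p under 0.05. Without that library the mitotic genes move towards 0 and the bars shorten, while Cdkn1a stays at log2 -2.11 in LGR5 cells.

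CD166 cells against crypt cells asks the same of the antibody sort. In CD166 cells 10 members were higher and 2 lower, against 13.6% of all genes higher and 16.5% lower (30.1% in either direction). The called genes were 6 of 12 replication fork and licensing genes, 3 of 4 nucleotide supply genes, 1 of 13 mitotic genes, Ccnd3 and Cdkn1a. The crypt libraries are the same as in the comparison of LGR5 cells, so the 2 comparisons are not independent.

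Gins1 was higher by log2 0.95 ± 0.16 (1.94-fold, adjusted p = 0.0015). It stood at 19.9 and 17.8 CPM in ileum CD166 cells and 14.5 and 19.1 CPM in jejunum CD166 cells, against 10.4, 8.29 and 10.4 CPM in ileum crypts and 9.27, 7.19 and 9.43 CPM in jejunum crypts. Every CD166 library was above every crypt library, and the call held in all 22 alternatives. Gins2 behaved likewise, at 57.2, 62.0, 56.8 and 61.7 CPM in CD166 cells and 29.5 to 45.4 CPM in crypt cells (log2 0.71 ± 0.14, adjusted p = 0.00349), and its call held in the same alternatives.

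Of the helicase subunits, Mcm7 was higher by log2 0.79 ± 0.22 (adjusted p = 0.0178), Mcm5 by 0.77 ± 0.24 (adjusted p = 0.0344) and Mcm4 by 0.60 ± 0.20 (adjusted p = 0.0393). Mcm5 stood at 199, 193, 209 and 171 CPM in CD166 cells and at 114, 151, 133, 128, 44.6 and 116 CPM in crypt cells, without overlap. The calls of Mcm4 and Mcm5 remained in 4 of the 14 fits without 1 library and that of Mcm7 in 12. Pcna, the sliding clamp, was higher by log2 0.51 ± 0.13 (adjusted p = 0.0128). It is a member that jejunum crypt 2 hardly lowered, at 87.9% of the mean of the other crypts, and its difference without that library was log2 0.43 ± 0.12 (adjusted p = 0.0167).

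The nucleotide genes followed. Tyms, thymidylate synthase, stood at 73.8, 98.4, 69.7 and 92.1 CPM in CD166 cells and at 25.9 to 57.7 CPM in crypt cells. The groups did not overlap and differed by log2 0.84 ± 0.20 (adjusted p = 0.0102). Tk1, thymidine kinase, was higher by log2 0.63 ± 0.15 (adjusted p = 0.0111) and Rrm1 by 0.75 ± 0.26 (adjusted p = 0.0474). Of the 14 fits without 1 library, the call remained in 12 for Tyms, 13 for Tk1 and 2 for Rrm1. Rrm2 was not called here either (log2 0.24 ± 0.18, adjusted p = 0.342), with 62.7, 58.8, 84.0 and 72.3 CPM in CD166 cells and 34.9 to 72.1 CPM in crypt cells, which overlap.

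Cdk1, the mitotic kinase, was the called gene of the mitotic class. It stood at 109, 108, 82.8 and 103 CPM in CD166 cells and at 43.7 to 80.2 CPM in crypt cells, without overlap, and was higher by log2 0.58 ± 0.15 (adjusted p = 0.0151). The other 12 mitotic genes all had a positive difference, the class median being log2 0.44 against 0.02 for all genes. Top2a, the topoisomerase that untangles sister chromatids, had log2 0.42 ± 0.30 and Aurkb (Aurora kinase B) log2 0.36 ± 0.29.

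Of the members lower in CD166 cells, Ccnd3 stood at 31.6, 30.3, 44.7 and 28.1 CPM in CD166 cells and at 43.9 to 58.6 CPM in crypt cells. Only jejunum CD166 1 reached the crypt range, and the difference was log2 -0.55 ± 0.15 (adjusted p = 0.0173). The other D-type cyclins were not called, with log2 0.49 ± 0.36 for Ccnd1 and -0.05 ± 0.15 for Ccnd2. Cdkn1a was lower by log2 -0.65 ± 0.21 (adjusted p = 0.0346), with 41.8 and 58.3 CPM in ileum CD166 cells and 153 and 108 CPM in jejunum CD166 cells. The ileum CD166 libraries lay below all crypt libraries and the jejunum CD166 libraries lay within the crypt range. The call was lost, among other alternatives, with limma on the deposited log2 values and without ileum CD166 1 or 2, jejunum CD166 2, ileum crypt 3 or jejunum crypt 3 (adjusted p up to 0.184 over the alternatives).

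Without jejunum crypt 2, 19 members were higher and 2 lower in CD166 cells, with a background of 16.1% higher and 19.2% lower. The calls then covered 10 of 12 replication genes, with a median of log2 0.47, and 3 of 13 mitotic genes, with a median of log2 0.24. The mitotic genes called were Cdk1, Ccnb1 (cyclin B1, log2 0.34 ± 0.11) and the spindle checkpoint kinase Bub1 (log2 0.37 ± 0.13). Ccne2 was higher by log2 0.73 ± 0.16 (adjusted p = 0.00522) and Cdkn1b by log2 0.50 ± 0.16 (adjusted p = 0.028). The count of members called was 21 without jejunum crypt 2, where 5112 of all genes were called, against 4439 with all libraries. Without ileum CD166 1, ileum CD166 2 or jejunum CD166 2, fits that leave 1 library in a group, fewer members were called. Fewer of all genes were called in these fits too, so the change is not read as a result about the members.

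**Figure D3:**
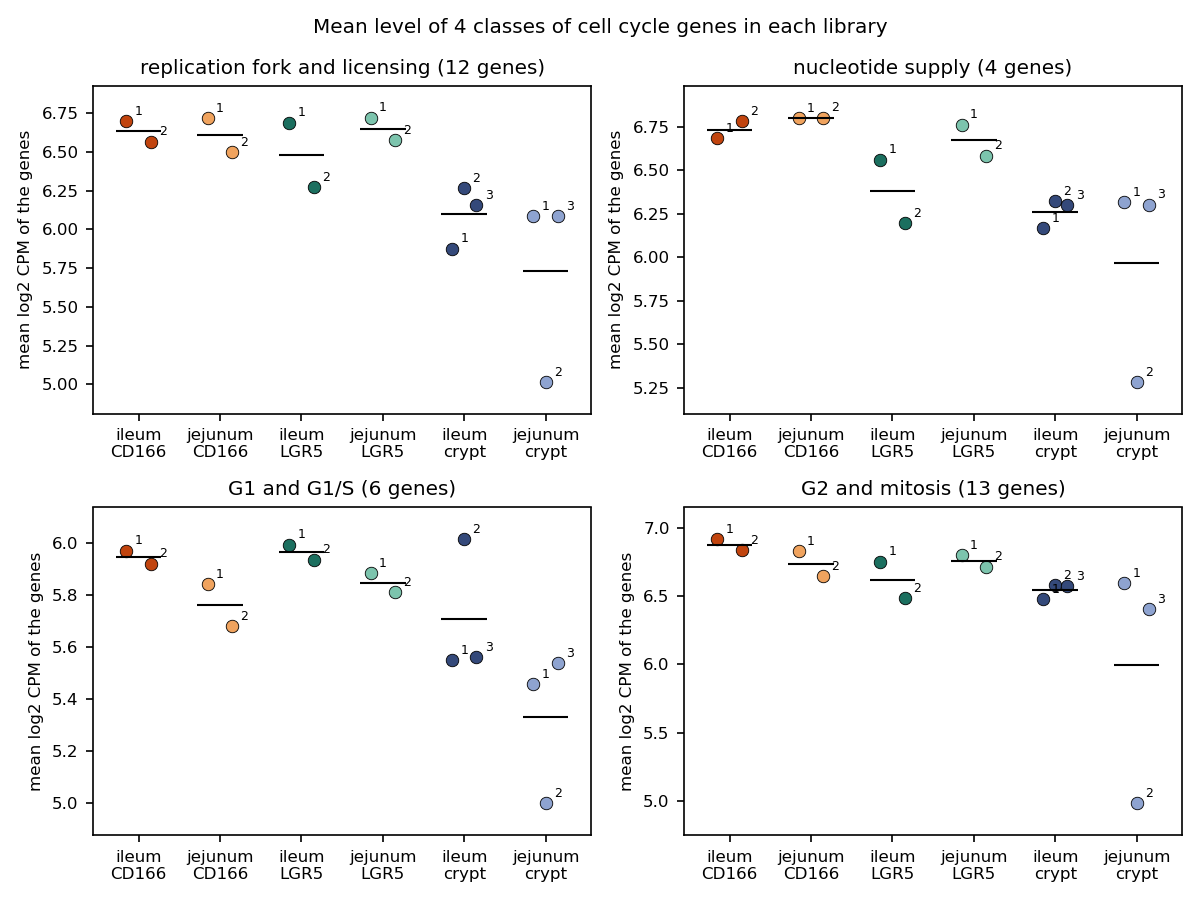
Each panel gives the mean log2 CPM of the genes of a class in each library, with the library's replicate number, and lines are group means. Jejunum crypt 2 lies below all other libraries in the replication panel at 5.02 and in the nucleotide panel at 5.28, and in the mitotic panel it lies at 4.98 against 6.41 to 6.60 in the other crypt libraries.

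Other cell types moved with these comparisons. Summed levels of 12 enterocyte markers were 1808 to 3978 CPM in CD166 cells, 1651 to 3051 CPM in LGR5 cells and 8883 to 57594 CPM in crypt cells, and all 12 were called lower in either sort against crypt. The 12 crypt base columnar markers were all called higher in both sorts. The 9 lymphocyte markers summed to 4.86 to 52.5 CPM in CD166 cells, 8.00 to 33.1 CPM in LGR5 cells and 158 to 10952 CPM in crypt cells. The 8 immediate early genes, which respond to handling among other stimuli, summed to 560.3 to 2969 CPM in CD166 cells, 725 to 3234 CPM in LGR5 cells and 154 to 363 CPM in crypt cells. Markers of Paneth cells, which do not divide, moved in opposite directions in the sorts: 4 of 8 were called higher in CD166 than in crypt cells (median log2 1.03) and 5 of 8 lower in LGR5 than in crypt cells (median log2 -1.21). Of 6 tuft cell markers 6 were called higher in CD166 and 2 in LGR5 cells against crypt cells. The part of these shifts in the cell cycle differences was not tested.

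**Figure D4:**
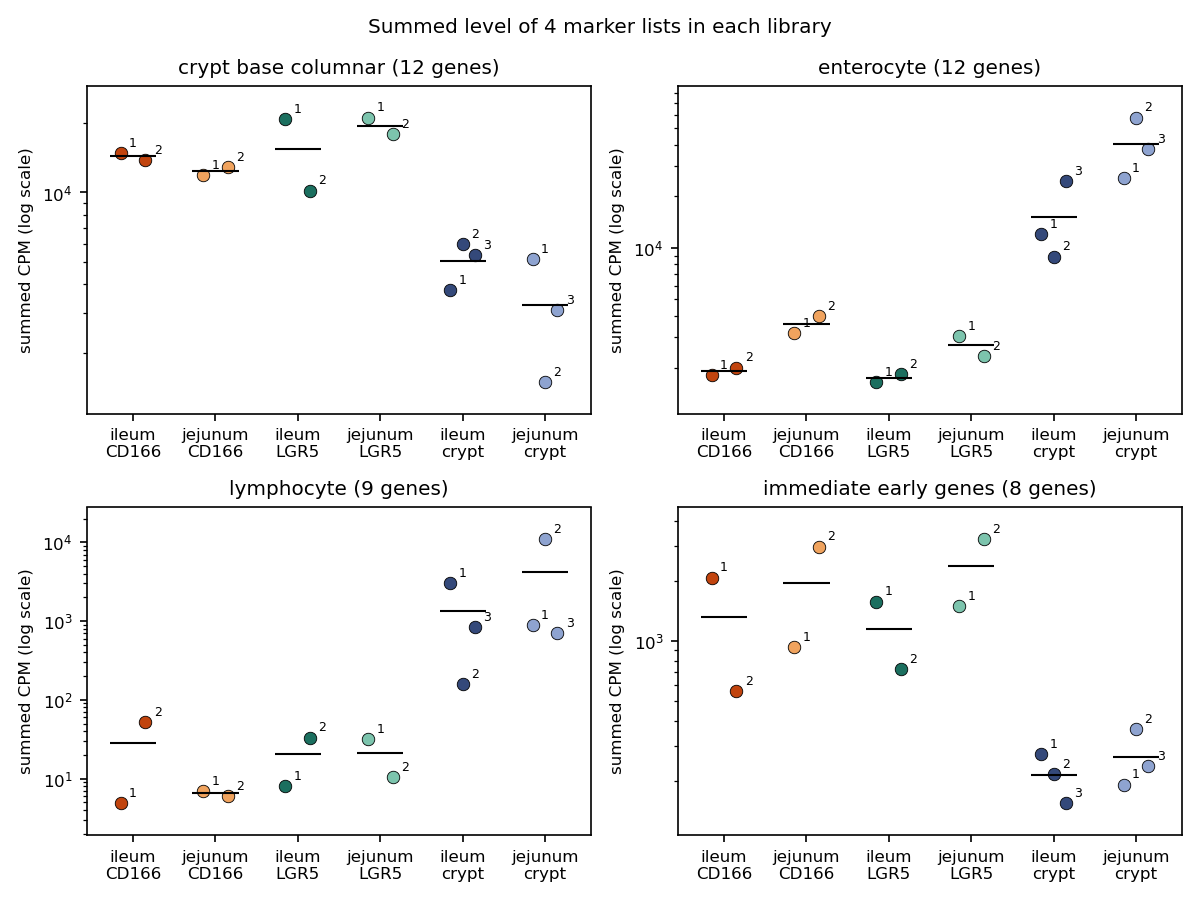
Each panel gives the summed CPM of a marker list on a log axis for each library, with its replicate number, and lines are group means. Crypt base columnar markers and immediate early genes are higher, and enterocyte and lymphocyte markers lower, in all CD166 and LGR5 libraries than in any crypt library, and jejunum crypt 2 has 10952 CPM of lymphocyte markers.

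Genes of the same pathways outside the 37 were counted from 3 lists of 43 replication, 40 mitosis and 31 G1 control genes, 29 of the last being tested. In LGR5 against crypt cells 17 of the 43 replication genes and 5 of the 40 mitosis genes were higher and none lower, beside 13% of all genes higher and 18.5% lower. In CD166 against crypt cells these counts were 19 and 8, again with none lower, beside 13.6% of all genes higher and 16.5% lower. The share of the mitosis list called higher in LGR5 cells is thus near the background. Of the G1 control genes 6 were higher and 2 lower in LGR5 cells, and 6 higher and 4 lower in CD166 cells, read against the same shares of all genes. The replication list had a median of log2 0.49 in CD166 and 0.48 in LGR5 cells, and without jejunum crypt 2 its counts were 23 in CD166 and 20 in LGR5 cells and those of the mitosis list 16 and 9.

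Cdkn2b, the CDK4 and CDK6 inhibitor p15, had the largest change. It stood at 7.17, 8.39, 4.89 and 4.83 CPM in LGR5 cells and 55.4 to 98.4 CPM in crypt cells, a difference of log2 -3.74 ± 0.19 (adjusted p = 1.76e-06). In CD166 cells it stood at 14.5, 16.0, 16.5 and 16.7 CPM (log2 -2.37 ± 0.17 against crypt, adjusted p = 2.34e-05). Rb1, the retinoblastoma protein that restrains E2F, was lower by log2 -0.96 ± 0.16 in LGR5 and by -0.87 ± 0.16 in CD166 cells.

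Higher in LGR5 cells were Cdk6, a partner kinase of the D-type cyclins (log2 1.48 ± 0.20), the growth regulator Myc (log2 1.25 ± 0.26), Trp53 (log2 0.83 ± 0.21) and the DNA polymerase genes Pola1 (log2 0.99 ± 0.25) and Pole (log2 0.86 ± 0.24). Higher in CD166 cells was the CDK inhibitor gene Cdkn1c (log2 1.92 ± 0.37). It stood at 3.69 and 13.6 CPM in ileum and 73.8 and 41.9 CPM in jejunum CD166 cells, against 2.51 to 8.83 CPM in crypt cells. Pole2 (log2 0.97 ± 0.17), the primase subunit Prim2 (log2 0.94 ± 0.16) and Cdk6 (log2 0.96 ± 0.20) were also higher in CD166 cells, while Ccng2 was lower (log2 -1.38 ± 0.45). All of these were also called without jejunum crypt 2.

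Between CD166 and LGR5 cells Cdkn1a alone among the members was called. A total of 1.61% of all genes were called, all 238 of them higher in CD166 cells. Cdkn1a was 2.58-fold higher in CD166 cells (log2 1.37 ± 0.23, adjusted p = 0.0103). Its levels overlap: ileum CD166 1 at 41.8 CPM lay below ileum LGR5 2 at 54.3 CPM, while the jejunum CD166 libraries (153 and 108 CPM) stood above all LGR5 libraries. The call was lost with limma on the deposited log2 values and without ileum LGR5 1, jejunum LGR5 1, jejunum LGR5 2, ileum CD166 2 or jejunum CD166 1, with adjusted p up to 0.197.

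The remaining 36 members differed by log2 -0.26 to 0.37 between CD166 and LGR5 cells. Of these, Gins2, Ccne1 and Aurka stood higher in every CD166 than in every LGR5 library, and no member stood lower without overlap. The share of all genes without overlap was not computed. Gins1 had the highest value, log2 0.37 ± 0.17 (adjusted p = 0.568), and Ccnd2 the lowest, log2 -0.26 ± 0.17 (adjusted p = 0.704). Replication genes had a median of log2 0.06 and mitotic genes 0.13. From the G1 control list 2 more CDK inhibitors were called higher in CD166 cells. Cdkn2b was higher by log2 1.37 ± 0.18 (adjusted p = 0.00312). Cdkn1c, the inhibitor p57, was higher by log2 2.37 ± 0.43 (adjusted p = 0.0171), with 3.69, 13.6, 73.8 and 41.9 CPM in CD166 cells and 4.60, 5.06, 3.70 and 4.10 CPM in LGR5 cells.

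Non-stem markers also separated the sorts, and their part in the inhibitor differences was not tested. Paneth markers (8 genes) summed to 32840 to 53323 CPM in CD166 cells and 5122 to 8779 CPM in LGR5 cells, with 5 of 8 called higher. Enteroendocrine markers (10 genes) summed to 659.7 and 2567 CPM in ileum CD166 and 7003 and 10265 CPM in jejunum CD166 cells, against 178 to 396 CPM in LGR5 cells, with 8 of 10 called higher. Of the CD166 libraries, those from jejunum had the most Cdkn1a, Cdkn1c and enteroendocrine message. Within jejunum the order was reversed. Jejunum CD166 1 had more Cdkn1a (153 against 108 CPM) and Cdkn1c (73.8 against 41.9 CPM) than jejunum CD166 2, but less enteroendocrine message. Crypt libraries held 108 to 174 CPM of Cdkn1a with 181 to 919 CPM of enteroendocrine markers.

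**Figure D5:**
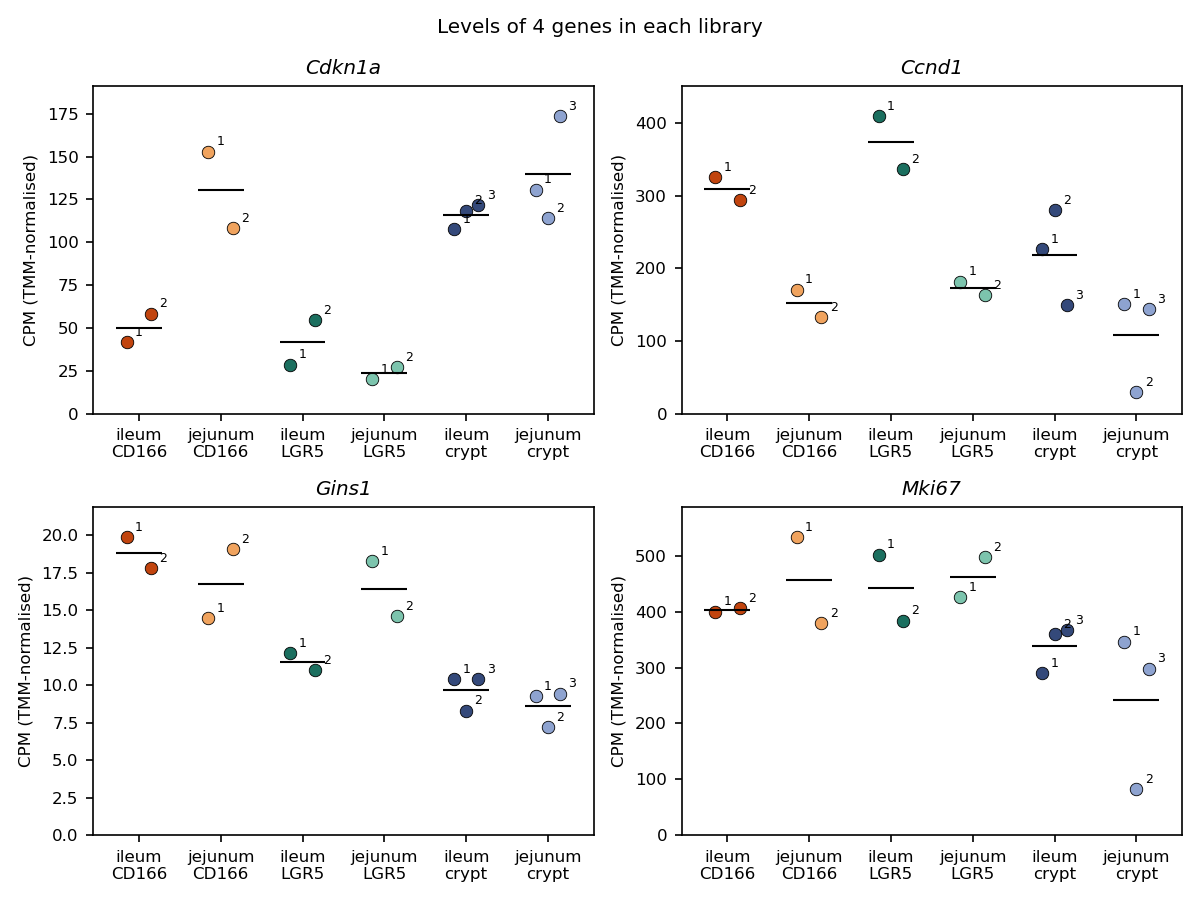
Each panel gives the CPM of a gene in each library, with its replicate number, and lines are group means. Cdkn1a is low in LGR5 cells and in ileum CD166 cells, Ccnd1 is higher in ileum than in jejunum within each sort, Gins1 is lowest in crypt cells, and Mki67 is lowest in jejunum crypt 2.

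Ileum against jejunum asks whether cell cycle genes differ by region. Averaged over the 3 populations, no member was called by edgeR, against 5.01% of all genes, and 2 of 37 had an unadjusted p under 0.05, against 17.7% of all genes. DESeq2 called 1 member, Ccnd1, and limma-voom none. Replication genes had a median of log2 0.05 and mitotic genes of 0.13. The mitotic median was 0.02 without jejunum crypt 2.

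Ccnd1 (ENSMUSG00000070348), which encodes cyclin D1, a known target of Wnt signalling, was the member nearest to a call between regions. It stood at 326 and 294 CPM in ileum CD166 cells, against 171 and 133 CPM in jejunum CD166 cells. In LGR5 cells it stood at 411 and 337 CPM in ileum, against 182 and 163 CPM in jejunum. In crypts it stood at 226, 280.2 and 149.9 CPM in ileum, against 150.4, 29.7 and 144 CPM in jejunum. The regions did not overlap in either sort, and the share of all genes with this pattern was not computed. In crypts they overlapped through the library labelled ileum crypt 3, which matched jejunum crypt 1.

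The mean difference of Ccnd1 was log2 1.05 ± 0.31 (2.08-fold, adjusted p = 0.0795 by edgeR and 0.00887 by DESeq2). Within populations it was log2 1.03 ± 0.56 in CD166, 1.12 ± 0.56 in LGR5 and 1.02 ± 0.46 in crypt cells, none of them called. Without jejunum crypt 2 the mean difference was log2 0.90 ± 0.14 (adjusted p = 0.00663), and within LGR5 cells it was 1.12 ± 0.26 (adjusted p = 0.0458, background 2.6%). Jejunum crypt 2 was the lowest library for Ccnd1, so leaving it out narrows the spread behind these p-values. Without that library and ileum crypt 3 the mean difference was log2 0.98 ± 0.11 (adjusted p = 0.000121, background 14.4%). Ccnd1 was then called within CD166 (1.03 ± 0.19, adjusted p = 0.0144), LGR5 (1.12 ± 0.19, adjusted p = 0.00596) and crypt cells (0.79 ± 0.18, adjusted p = 0.026). The backgrounds of these last 3 were 1.9%, 6.09% and 7.16% of genes.

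Rrm2 ran the other way. It stood at 62.7 and 58.8 CPM in ileum CD166 cells, against 84.0 and 72.3 CPM in jejunum CD166 cells, and at 51.6 and 50.8 CPM in ileum LGR5 cells, against 78.8 and 62.1 CPM in jejunum LGR5 cells. The regions did not overlap in either sort, again without a computed share of all genes, and overlapped in crypts. The mean difference was log2 -0.26 ± 0.15 (adjusted p = 0.444), and without jejunum crypt 2 it was log2 -0.35 ± 0.09 (adjusted p = 0.0427), among 2 members then called against 7.71% of all genes. The other D-type cyclins had log2 0.32 ± 0.13 for Ccnd2 (adjusted p = 0.198) and 0.09 ± 0.12 for Ccnd3. No gene of the 3 other pathway lists was called between regions with all libraries, and 3 were without jejunum crypt 2.

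Within a population no member was called between regions by edgeR, against 0.0203% of all genes in CD166, 0.698% in LGR5 and 0% in crypt cells. Unadjusted p-values under 0.05 were found for 1 member in CD166, 3 in LGR5 and 1 in crypt cells, against 6.36%, 14.1% and 12.9% of all genes in these populations. DESeq2 called Cdkn1a in CD166 cells and no member in LGR5 or crypt cells, and limma-voom called none. Cdkn1a was lower in ileum than in jejunum CD166 cells by log2 -1.38 ± 0.32 (adjusted p = 0.192 by edgeR and 0.00589 by DESeq2). In LGR5 cells its ileum value was above its jejunum value by log2 0.81 ± 0.32 (adjusted p = 0.288). The joint test of whether the regional difference depends on the population called no member, against 0.0136% of all genes, and gave Cdkn1a an adjusted p of 0.664 by edgeR and 0.0173 by DESeq2.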

How the data were processed

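RNA-seq libraries (TruSeq, single-end reads of 50 bases, per the labels) came from 14 samples in 6 groups. For each sample the authors deposited expected counts per gene, without scaling: 50.6% of values above 0 are whole within 0.001. They also deposited log2 values, which are the log2 of the same counts after 1 constant per library, centred on the gene's median (the kinds differ by at most 9.7e-07 over 8826 genes above 50 counts). The submitters' processing notes name mm9 and DESeq. Aligner, counter, annotation and use of strand were not given in the sources used here, so members with processed pseudogenes, such as Tyms, carry uncertain values.

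The counts, rounded to integers, passed through filterByExpr (minimum count 10, minimum total 15), which kept 14750 genes, and were scaled by TMM. A quasi-likelihood model with 6 group means (edgeR 4.0.16, R 4.3.3) gave contrasts that weight regions or populations equally. A call is an adjusted p under 0.05 over all tested genes, and each SE was back-calculated from the log2 fold change and its F statistic. The fit was tested on simulated data. Alternatives were DESeq2 1.42.0, limma 3.58.1 (voom, and the deposited log2 values), other scaling, no filter, a replicate block and libraries left out. Totals ran from 6295828 to 20380369 counts, and genes with few counts are measured less precisely.

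The 37 members and all lists were chosen with earlier results of these data known. All members could be named, and from the other pathway lists up to 8 called genes per comparison with the largest change and a mean log2 CPM of at least 3. Sort, region and marker genes were named as checks.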

Additional observations from a re-analysis of the deposited data

Results flagged for a closer look

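The regional difference pointed in opposite directions in the 2 sorts, without overlap between the 2 libraries of each region, for 4 members. The same pattern was found in 6.24% of all 14750 tested genes, and none of the 4 passed the joint test of the difference by edgeR. Cdkn1a was lower in ileum CD166 than in jejunum CD166 cells and higher in ileum LGR5 than in jejunum LGR5 cells (interaction adjusted p = 0.664 by edgeR, 0.0173 by DESeq2). E2f1 was higher in ileum CD166 and lower in ileum LGR5 cells than in the jejunum cells of the same sort (adjusted p = 0.905 by edgeR, 0.906 by DESeq2). Ccnb1 (0.917 and 0.944) and Birc5 (0.911 and 0.918) had the same pattern as E2f1.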

How the results depend on the processing

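Of 20 called differences of members none changed sign under any alternative. Of 239 uncalled ones 97 changed sign in some alternative, so their directions are not firm, and 34 were called in some alternative. Members called when 1 library was left out ranged from 0 to 1 for CD166 against LGR5 (1 with all libraries), 1 to 13 for LGR5 against crypt (7), 3 to 21 for CD166 against crypt (12), 0 to 2 for ileum against jejunum (0), 0 to 1 within LGR5 (0), and stayed at 0 within CD166, within crypt and for the interaction. All genes called ranged likewise from 85 to 295 (238), 2421 to 5032 (4639), 2769 to 5112 (4439), 138 to 1269 (739), 2 to 376 within LGR5 (103), 0 to 112 within CD166 (3), 0 to 614 within crypt (0) and 0 to 15 for the interaction (2). Leaving 1 arm with a single library assumes that it varies like the other groups.

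Without ileum crypt 3 and jejunum crypt 2 members called were 14 for LGR5 against crypt, 22 for CD166 against crypt, 2 between regions and 1 each within CD166, LGR5 and crypt. All genes called were then 387 for CD166 against LGR5, 2090 between regions, 275 within CD166, 882 within LGR5, 1036 within crypt and 15 for the interaction. Without the crypt libraries high in Xist (jejunum crypt 2 and ileum crypt 1), chosen after seeing the data, members called were 13, 23, 1 between regions and 1 within LGR5, and all genes 402 for CD166 against LGR5, 5349 for LGR5 against crypt, 5622 for CD166 against crypt, 1224 between regions, 73 within CD166, 535 within LGR5, 83 within crypt and 33 for the interaction.

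DESeq2 called 11 members for LGR5 against crypt, 1 between regions, 1 within CD166 and 1 for the interaction, and 421 genes for CD166 against LGR5, 1410 between regions, 186 within CD166, 773 within LGR5, 323 within crypt and 70 for the interaction. limma-voom called 30 genes within LGR5, 47 within CD166 and 0 for the interaction. limma on the deposited log2 values called 0 members for CD166 against LGR5, 6 genes within CD166, 2 within crypt and 1 for the interaction. Without a filter 13 genes were called within CD166. The replicate numbers were not taken as pairs, since over all genes 8 of 31 same-numbered pairs correlated above 0.1, from -0.454 to 0.378. Where both groups hold 2 libraries, replicates 1 and 2 give the same value by construction, so not all of these values are separate. Among the members, however, 15 of 37 were higher in library 1 than in library 2 in all 4 sorted groups, against 5.29% of all genes, 8 of them replication fork and licensing genes. With the replicate block 5 members were called for LGR5 against crypt, 11 for CD166 against crypt and 1 for CD166 against LGR5, without Gins2 (adjusted p = 0.0762) and E2f1 (0.0504) in LGR5 cells and without Cdkn1a (0.0914) in CD166 cells, and 254 genes within LGR5, 31 within CD166, 3 within crypt and 0 for the interaction. Crossing the numbers of the jejunum sorted libraries gave 349 genes within LGR5 and 40 within CD166, with 0 members. The cause of these shifts was not tested. Member counts in this section without a count of all genes beside them are not read as results about the members.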
